A study of Sus scrofa with 8 samples.

Results

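Genes that break down stored or circulating fat were compared between the livers of young and old sows. The list of lipases, esterases and a lipid droplet coat gene held LIPC, LIPK, LIPA, LIPE, LPL, MGLL, PNPLA2, PNPLA3, CES1 and PLIN2, and its members were found by gene symbol among the 21607 mRNA identifiers of the RNA-seq table. An identifier was found for 7 of the 10 listed genes. LIPC, LIPA, LIPE, MGLL, PNPLA2 and PNPLA3 were matched through a table of pig Ensembl symbols, and LIPK through the pairing of symbol and identifier that the study gives (ENSSSCG00000010442). LPL, CES1 and PLIN2 had no matching identifier and were not analysed here, so the 7 genes described are all lipases and include no droplet coat gene. The young livers (YL) came from 2 sows 180 days old and the old livers (OL) from 2 sows 8 years old, all healthy females of the Yana breed, an indigenous Chinese pig, with 1 rRNA-depleted RNA-seq library per liver. According to the methods of the study, the sows were unrelated and were fed freely but not on the night before slaughter. The study also states that the young sows had never given birth, and that the old sows were culled after many years of breeding. Each age group is therefore 2 animals, and age cannot be told apart from anything else that differed between these 2 pairs of sows.

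Lipases cut the ester bonds of fats. Inside a cell, triglycerides of a lipid droplet are taken apart in sequence by PNPLA2 (adipose triglyceride lipase), LIPE (hormone-sensitive lipase) and MGLL (monoglyceride lipase), and the first of these enzymes is switched on by the coactivator ABHD5 and held back by G0S2. LIPA, the lysosomal acid lipase, splits cholesteryl esters and triglycerides that reach the lysosome, and LIPC, hepatic lipase, is secreted by hepatocytes and acts on lipoproteins along the liver sinusoids.

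The values are CPM, the reads of a gene scaled to the total of its library, and those above 0 were whole multiples of a single step in each library, so that reads could be recovered. Between 28324675 and 52207649 reads per library fell on listed mRNAs and lncRNAs, with the young libraries the deeper. Summed over all mRNAs, CPM came to 408898 and 428910 in YL and to 365330 and 346173 in OL. CPM carries no gene length, so levels are compared between libraries and not between genes. The liver label was checked against 9 hepatocyte markers, none of which was at 0 in all libraries, and ALB was at 29468 and 35205 CPM in YL and at 16534 and 23978 in OL. The summed CPM of the hepatocyte markers was 47480 and 53004 in YL and 33107 and 39170 in OL, with 3 of the 9 lower in both old livers and none higher. ALB is the largest part of this sum in each library. The summed CPM of 6 macrophage markers was 238 and 260 against 345 and 379, with 4 of the 6 higher in both old livers and 1, MSR1, lower in both. Over all 16898 mRNAs tested, 24.4% were higher and 25.0% lower in both old livers, and over those with a mean of at least 1 CPM 17.8% were higher and 32.9% lower, so the hepatocyte count by itself is near the share of all such mRNAs. Of the adipocyte markers only 3 of 8 had an identifier, with LGALS12 at 0 in every library and PLIN1 at no more than 0.306 CPM. CIDEC, also listed below as a lipid droplet gene, was at 14.2 and 6.91 CPM in YL and at 4.62 and 3.73 CPM in OL. PLIN1 was higher and CIDEC lower in both old livers. Summed over 13 interferon-stimulated genes, old replicate 1 stood apart at 1871 CPM, against 45.9 to 65.0 in the other libraries. In bulk tissue, fewer cells of a type and less RNA per cell cannot be told apart. The part of these marker levels in the lipase values was not tested.

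The lipase with the clearest separation was LIPK, a member of the acid lipase family that is known from human skin. LIPK was at 2.61 and 3.52 CPM in YL (240 and 305 reads) and at 0.016 and 0.014 CPM in OL, where each library held 1 read. Both young livers were far above both old livers, and the lower young value was 163 times the higher old value. Over the summed reads, 545 in the young libraries and 2 in the old ones, the young level was 204 times the old level, with a 95% exact interval of 56.1 to 1686 that covers counting error only. On log2(CPM + 1), the scale of the test, the difference between old and young livers was -1.99 (standard error 0.17, adjusted p = 0.213, limma), which understates the change because the old values lie close to 0. The study itself names LIPK as lower with age in these libraries, so its direction is a description and not independent evidence. LIPK belongs to a family of similar genes, and reads that it shares with relatives could be placed with either. Its relative LIPA, described below, had 556 to 2135 reads per library. Another relative, LIPM, named here after its values were seen, held no more than 0.042 CPM in any library. The relatives LIPF, LIPJ and LIPN had no identifier, and the part of shared reads was not tested.

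The secreted lipase LIPC had 80.3 and 135 CPM in YL (7372 and 11726 reads) and 63.9 and 90.4 CPM in OL (3932 and 6493 reads). Old replicate 1 was below both young livers and old replicate 2 lay between them, so the age groups overlapped. The difference was -0.45 on log2(CPM + 1) (standard error 0.37, adjusted p = 0.634, limma), smaller than the gap of 0.75 between the young livers. With 1 library left out, it lay between -0.83, without young replicate 1, and -0.08, without young replicate 2, the highest of the libraries.

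The lysosomal lipase LIPA was at 18.7 and 24.7 CPM in YL (1718 and 2135 reads) and at 9.04 and 16.9 CPM in OL (556 and 1217 reads). Both old livers were below both young livers as deposited, but the nearest pair, young replicate 1 and old replicate 2, differed by a factor of only 1.10. The groups overlapped after scaling with TMM factors, which put that young liver at 17.1 and that old liver at 18.2. The difference was -0.75 on log2(CPM + 1) (standard error 0.38, adjusted p = 0.455, limma). Its value was -0.33 without old replicate 1 and -1.16 without old replicate 2. In the RefSeq annotation of Sscrofa11.1, the genes IFIT1, IFIT2 and IFIT3 overlap the span of LIPA. The authors aligned the reads to Sscrofa10.2, in which this overlap was not checked. IFIT1, an interferon-stimulated gene, was at 2.85 and 4.34 CPM in YL, at 231 in old replicate 1 and at 4.66 in old replicate 2. LIPA had its lowest value and IFIT1 its highest in old replicate 1. The study names a directional library kit, but whether reads were counted by strand is not given in the sources used here. The part of reads from these genes in the values of LIPA was not tested.

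**Figure D1:**
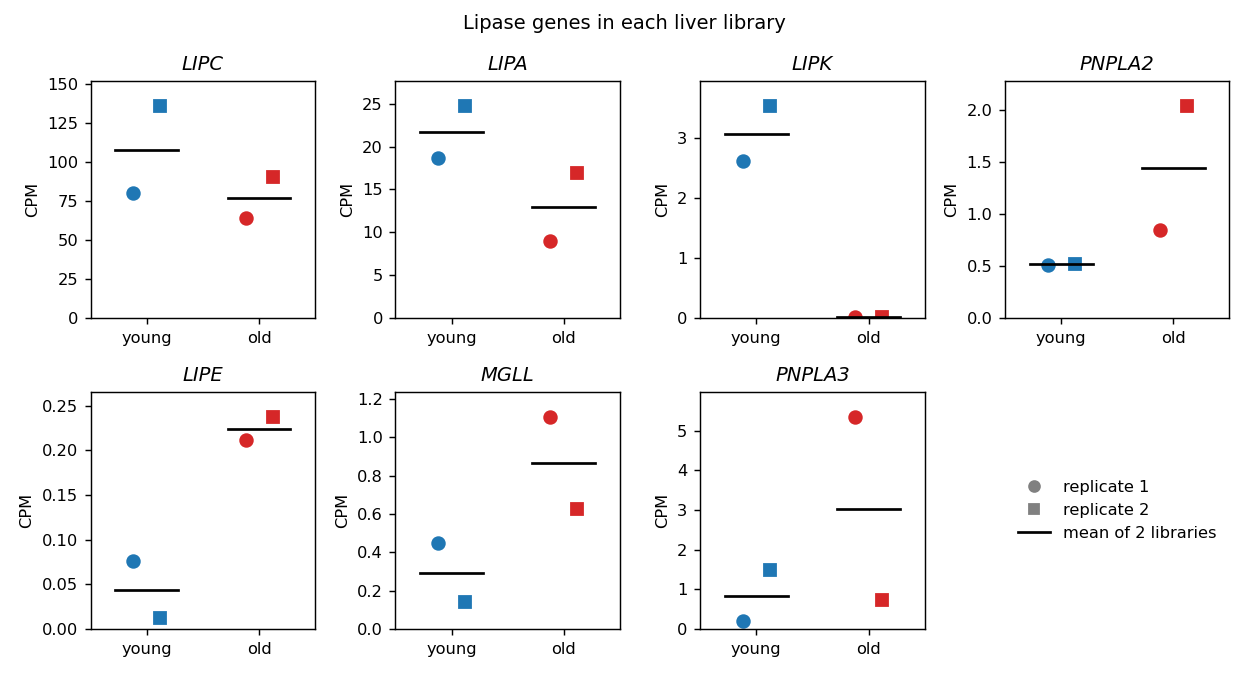
CPM (vertical axes, each from 0 with its own range) of 7 lipase genes in the 2 young and 2 old liver libraries (horizontal axes); circles are replicate 1, squares replicate 2 and lines the mean of each age group. LIPK is near 0 in both old livers, PNPLA2, LIPE and MGLL are higher in both old livers, and for PNPLA3 old replicate 1 alone lies above the other libraries.

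The enzymes of the droplet pathway had few reads in every library, and each was higher in both old livers. PNPLA2, which starts the breakdown of a stored triglyceride, was at 0.512 and 0.520 CPM in YL (47 and 45 reads) and at 0.845 and 2.03 CPM in OL (52 and 146 reads). The young livers agreed to within a factor of 1.02, whereas old replicate 2 was 2.41 times old replicate 1. The mean of the old livers was 2.79 times that of the young livers, and the difference on log2(CPM + 1) was 0.64 (standard error 0.30, adjusted p = 0.431, limma). It was 0.28 without old replicate 2 and 1.0 without old replicate 1.

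LIPE, which follows PNPLA2 and splits diglycerides, was at 0.076 and 0.012 CPM in YL (7 reads and 1 read) and at 0.211 and 0.237 CPM in OL (13 and 17 reads). Both old values were above both young values, on very few reads. Over summed reads (8 in young and 30 in old libraries) the old level was 5.02 times the young level, with a 95% exact interval for counting error of 2.25 to 12.7. The difference on log2(CPM + 1) was 0.23 (standard error 0.11, adjusted p = 0.446, limma).

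MGLL, which releases the last fatty acid, was at 0.446 and 0.139 CPM in YL (41 and 12 reads) and at 1.11 and 0.626 CPM in OL (68 and 45 reads). The lower old liver was 1.4 times the higher young liver. The mean of the old livers was 2.96 times the mean of the young livers, and on log2(CPM + 1) the difference was 0.53 (standard error 0.23, adjusted p = 0.401, limma). Without old replicate 1 this fell to 0.34. In the RefSeq annotation of Sscrofa11.1 the span of MGLL overlaps ABTB1, and that of LIPE overlaps ATP5SL. Neither overlap was checked in Sscrofa10.2, and the part of ABTB1 and ATP5SL in the counts was not tested.

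PNPLA3, a droplet-associated relative of PNPLA2 known for a human variant linked to fatty liver, was at 0.196 and 1.49 CPM in YL (18 and 129 reads) and at 5.35 and 0.724 CPM in OL (329 and 52 reads). Old replicate 1 was the highest and old replicate 2 lay between the young livers, so the age groups overlapped. Values within an age group differed by factors of 7.60 among the young and 7.38 among the old livers, more than the ratio of 3.60 between the group means. The difference of 0.94 on log2(CPM + 1) (standard error 0.85, adjusted p = 0.670, limma) rested on old replicate 1, without which it was -0.0014.

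All 7 lipases with an identifier were above 0 in each of the 4 libraries and passed the filter, and 4 were higher and 3 lower on average in old livers. LIPE, MGLL and PNPLA2 (3 of 7) were higher in both old livers than in both young ones, against 24.4% of the mRNAs tested. LIPK and LIPA (2 of 7) were lower in both, against 25.0%. Each of the 3 higher genes had a mean under 1 CPM, and both lower genes a mean of at least 1 CPM. LIPK reached that mean through the young livers alone, and PNPLA2, at a mean of 0.98 CPM, was just under it. Among mRNAs with a mean of at least 1 CPM, 17.8% were higher and 32.9% lower in both old livers. Among mRNAs under that mean, the share higher in both was thus above 24.4% and the share lower below 25.0%. More mRNAs were above 0 in the old libraries (17262 and 16978) than in the young ones (15230 and 14291). The median difference of the 7 genes was 0.23 on log2(CPM + 1), beside -0.02 over all mRNAs tested. In limma with Benjamini-Hochberg adjustment over all mRNAs, none of the 7 genes and 0% of all mRNAs had an adjusted p-value under 0.05 with a log2 difference beyond 1. At an unadjusted p-value under 0.05 there was 1 gene of the 7, LIPK, against 15.7% of all mRNAs. For a single gene, an exact two-sided permutation test of 2 against 2 libraries cannot give a p-value below 0.333.

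On the recovered reads, the tests did not give the same answer for LIPK. The exact test of edgeR, the method of the study, gave a log2 difference of -7.34 with an adjusted p-value of 1.06e-05, and DESeq2 gave -7.51 with 4.86e-07. The quasi-likelihood test of edgeR gave an adjusted p-value of 0.276 for the same reads. The exact test called 399 mRNAs (2.36% of those tested, with 0.320% lower in old livers) and DESeq2 called 859 (5.08%), and LIPK was the only lipase of the 7 among either set. For the other 6 genes the adjusted p-values were 0.549 or more in the exact test and 0.349 or more in DESeq2.

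**Figure D2:**
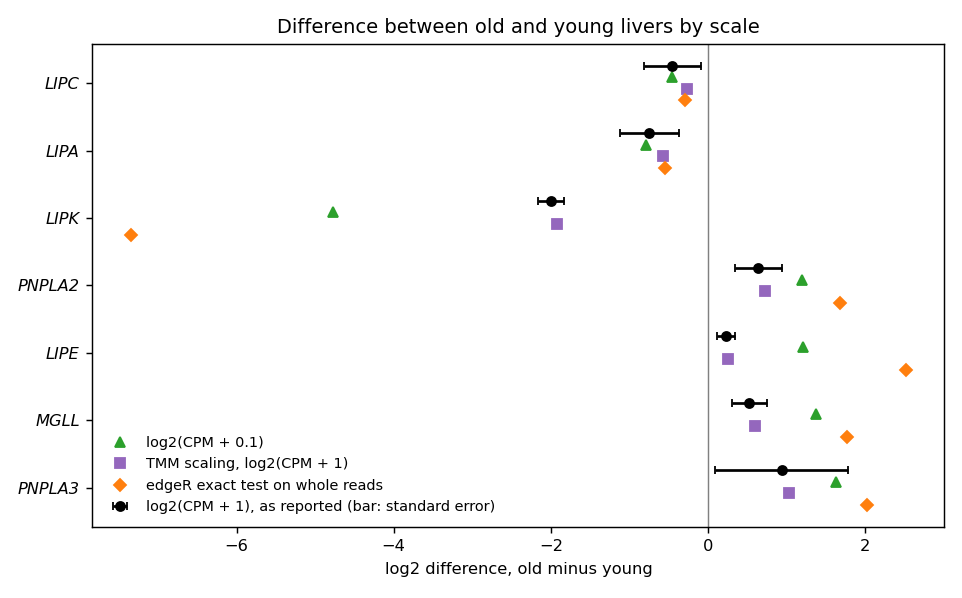
Log2 difference between old and young livers (horizontal axis) for 7 lipase genes (rows) on log2(CPM + 1) with its standard error, on log2(CPM + 0.1), after TMM scaling, and in the exact test of edgeR on whole reads. The direction is the same on each scale, and LIPK moves from -1.99 on log2(CPM + 1) to -7.34 in the exact test.

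The size of these differences depended on the scale for the lipases with few reads. With a pseudocount of 0.1 in place of 1, the difference of LIPK was -4.77, that of MGLL 1.37, that of LIPE 1.21 and that of PNPLA2 1.20. LIPC and LIPA, which had more reads, changed little, to -0.46 and -0.79. Before such scaling, the median difference was -0.15 over mRNAs with a mean of at least 1 CPM. TMM scaling moved the median over all mRNAs from -0.02 to 0.03 and the values of LIPC and LIPA to -0.26 and -0.57. No direction among the 7 genes was turned by a pseudocount, a scaling or a test on reads.

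The other genes of the pathway were read by role, from lists of 76 genes of which 47 had an identifier and 39 were tested. Of the 39, 16 were higher and 23 lower on average in old livers, 8 of 39 were higher in both old livers and 15 of 39 (38.5%) lower in both, against 24.4% and 25.0% of all mRNAs. The separate lists hold between 2 and 12 tested genes, and their counts stand beside the same shares. With TMM scaling these counts were 10 and 13, where 29.0% and 19.1% of all mRNAs were higher and lower in both. Among the 33 genes with a mean of at least 1 CPM, 4 were higher and 14 (42.4%) lower in both old livers, against 17.8% and 32.9% of the mRNAs with such a mean. None of the 39 was called by limma, and 10 had an unadjusted p-value under 0.05, against 15.7% of all mRNAs. ABHD5 alone was called by the exact test of edgeR, none by the quasi-likelihood test, and DESeq2 called ABHD5, LMF1 and PON3.

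Of 8 genes that act with the lipases of the blood vessel wall, 4 had an identifier. Of the 4, 2 were higher and 1 lower in both old livers, against 24.4% and 25.0% of all mRNAs. LMF1, an endoplasmic reticulum protein needed for LPL and LIPC to mature, was at 3.59 and 3.0 CPM in YL and at 7.38 and 15.4 CPM in OL. The lower old liver was 2.05 times the higher young liver, and the difference was 1.45 on log2(CPM + 1) (standard error 0.40, adjusted p = 0.276, limma), with an adjusted p-value of 0.0168 in DESeq2 and 0.113 in the exact test of edgeR. Without old replicate 2 it was 0.97. ANGPTL4, a secreted inhibitor of LPL, was at 13.8 and 7.52 CPM against 29.2 and 14.5. APOC3, an apolipoprotein that slows lipolysis in the blood, had the opposite order, at 38924 and 41068 CPM against 27977 and 25036. The other gene of this list, the endothelial lipase LIPG, was at 18.1 and 8.84 CPM in YL and 18.3 and 9.66 in OL, and is named here after its values were seen.

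Of 16 partners of cytosolic lipolysis, 11 had an identifier and were tested. Of the 11, 2 were higher and 5 lower in both old livers, against 24.4% and 25.0% of all mRNAs. The coactivator of PNPLA2, ABHD5, was at 24.3 and 23.8 CPM in YL and at 5.41 and 3.98 CPM in OL. The young livers differed by a factor of 1.02 and every young value was at least 4.40 times every old value. The difference was -2.15 on log2(CPM + 1) (standard error 0.18, adjusted p = 0.213, limma), with an adjusted p-value of 0.0488 in the exact test of edgeR and 6.78e-06 in DESeq2. PNPLA2 and its coactivator thus lay in opposite orders, with PNPLA2 higher and ABHD5 lower in both old livers. G0S2, the inhibitor of PNPLA2, is also named after its values were seen. It was at 11 and 3.96 CPM in YL and at 23.7 and 6.33 CPM in OL, which overlapped.

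AQP9, the glycerol channel of hepatocytes, was at 41.6 and 45.5 CPM in YL and at 14.4 and 26.8 CPM in OL. In the RefSeq annotation of Sscrofa11.1 AQP9 is the next protein-coding gene after LIPC, and unlike LIPC it did not overlap between the ages. ABHD2, a further lipid hydrolase, was at 38.4 and 42.4 CPM against 11.8 and 37.0, and its groups overlapped after TMM scaling. DAGLB, which makes monoglycerides from diglycerides, was at 1.26 and 0.832 CPM against 1.45 and 1.52.

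In the patatin-like family of PNPLA2 and PNPLA3, 3 of 6 further genes had an identifier and 2 were tested. PNPLA8, a mitochondrial and peroxisomal phospholipase, was at 6.94 and 8.61 CPM in YL and at 6.09 and 4.19 CPM in OL, and overlapped after TMM scaling. Around LIPA, 7 of 11 genes of the acid lipase family and lysosome had an identifier and 4 were tested. Of the 4, 2 were higher and none lower in both old livers, against 24.4% and 25.0% of all mRNAs. The 2 higher genes were TFEB and NPC1. TFEB, a transcription factor of lysosomal genes, was at 0.544 and 0.647 CPM against 1.35 and 1.18. NPC1, which moves cholesterol out of the lysosome, was at 0.479 and 0.566 CPM against 1.35 and 1.11. Both are named after their values were seen, as their means were under 1 CPM.

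Of 15 esterase and lipase genes besides CES1, 10 had an identifier and 6 were tested. Of the 6, 3 were lower and none higher in both old livers, against 25.0% and 24.4% of all mRNAs. All 6 had a mean of at least 1 CPM, and 32.9% of the mRNAs with such a mean were lower in both. PON3, a lactonase carried on high-density lipoprotein, was at 59.3 and 99.8 CPM in YL and at 26.4 and 22.7 CPM in OL. Its difference was -1.61 on log2(CPM + 1) (standard error 0.32, adjusted p = 0.230, limma), with an adjusted p-value of 0.0294 in DESeq2 and 0.275 in the exact test of edgeR. PON1, the related paraoxonase, was at 287 and 239 CPM against 66.3 and 131. ESD, a broadly acting esterase, was at 52.8 and 60.7 CPM against 13.0 and 34.2. The lower young value of each gene was above its higher old value, by a factor of 2.25 for PON3, 1.83 for PON1 and 1.54 for ESD.

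Of 20 lipid droplet proteins besides PLIN2, 12 had an identifier and were tested, with 2 higher and 5 lower in both old livers, against 24.4% and 25.0% of all mRNAs. Among the 10 with a mean of at least 1 CPM, 1 was higher and 5 lower, against 17.8% and 32.9% of the mRNAs with such a mean. CIDEC, which fuses droplets into larger ones, was at 14.2 and 6.91 CPM in YL and at 4.62 and 3.73 CPM in OL. Its relative CIDEB, which acts in the lipidation of very low-density lipoprotein, was at 239 and 180 CPM against 107 and 128. HSD17B11, a droplet-bound dehydrogenase, was at 485 and 489 CPM against 151 and 345. BSCL2, which encodes seipin, a protein of droplet formation at the endoplasmic reticulum, had the opposite order, at 2.47 and 0.624 CPM in YL and 4.06 and 2.90 CPM in OL. In limma the adjusted p-values of these 4 genes were 0.349 for CIDEC, 0.271 for CIDEB, 0.407 for HSD17B11 and 0.466 for BSCL2.

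**Figure D3:**
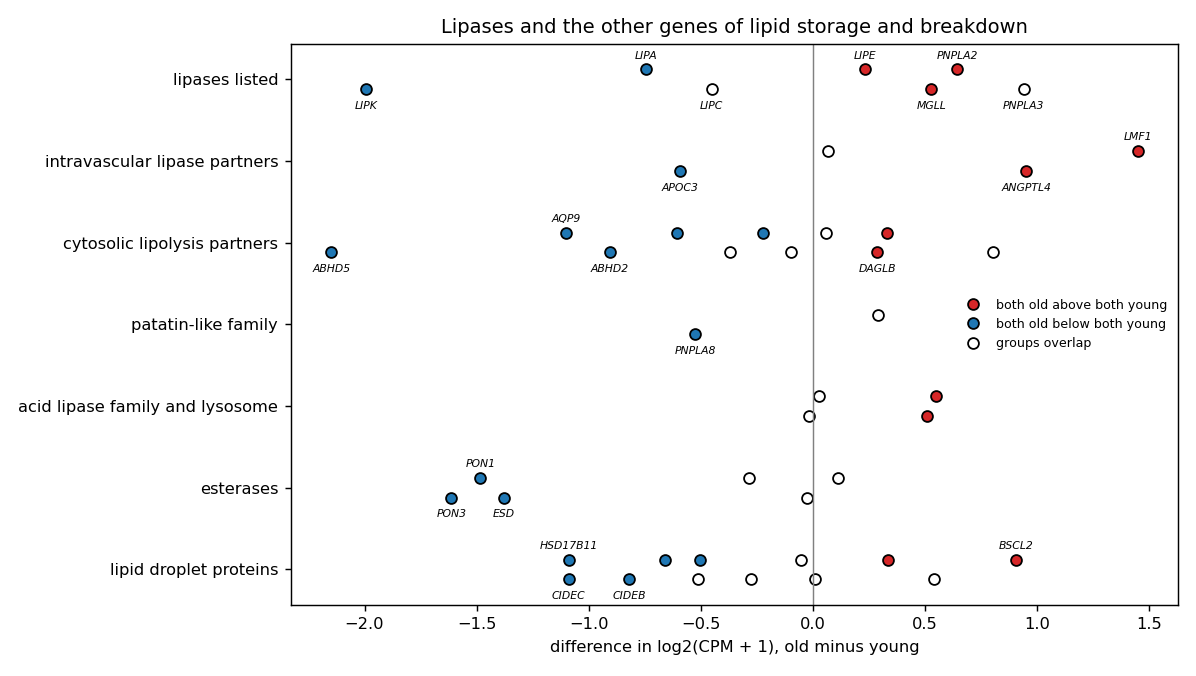
Difference in log2(CPM + 1) between old and young livers (horizontal axis) for the 7 lipases and 39 other genes of lipid storage and breakdown, 1 point per gene in rows by role. Red points are higher and blue points lower in both old livers, and open points overlap. ABHD5 and LIPK lie farthest to the left and LMF1 farthest to the right.

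The 2 old livers did not carry these differences equally. Old replicate 1 was below both young livers for LIPC, LIPA and LIPK and above both for the other 4 lipases, so that none of the 7 lay between the young livers. In old replicate 2, 3 of the 7 were above both young livers, 2 below both and 2, LIPC and PNPLA3, between them. LIPA was at 0.417 times the young mean in old replicate 1 and at 0.781 times in old replicate 2. PNPLA2 went the other way, with 1.64 times the young mean in old replicate 1 and 3.94 times in old replicate 2. LIPK was at 0.0052 and 0.0046 times the young mean, on 1 read in each old liver, and ABHD5 at 0.225 and 0.166 times. ESD was at 0.228 times in old replicate 1 and 0.603 times in old replicate 2. Old replicate 1 is the liver with the high interferon-stimulated genes and the lowest summed hepatocyte markers. Of these markers, ALB, APOB, TTR, TF and CPS1 were lowest in this liver, and APOA1 and FGB were highest in it. FGB was at 10375 CPM there, against 7407 and 4366 in YL. The part of the interferon-stimulated genes or of the hepatocyte markers in the lower values was not tested.

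**Figure D4:**
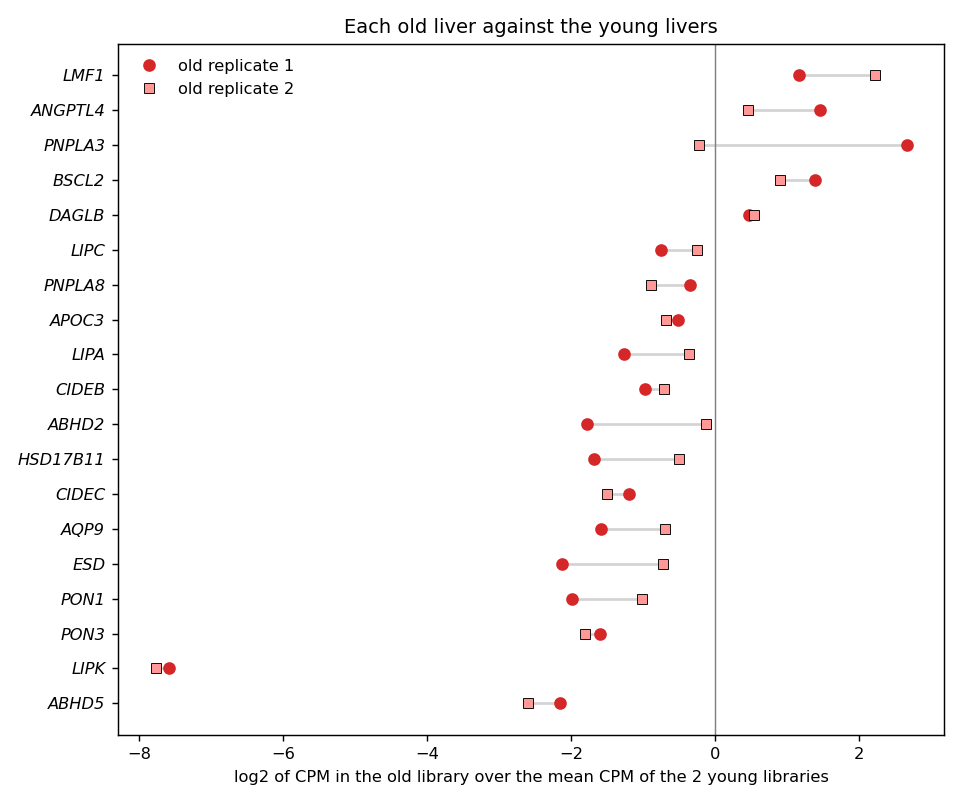
Log2 of the CPM of each old liver over the mean CPM of the 2 young livers (horizontal axis) for the lipases and partners with a mean of at least 1 CPM (rows); circles are old replicate 1 and squares old replicate 2, joined by a line. LIPK, with 1 read in each old liver, lies farthest to the left, ABHD5 is lower in both old livers, and PNPLA3 is 6.34 times the young mean in old replicate 1 and 0.859 times in old replicate 2.

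The genes whose levels followed LIPK most closely across the 4 libraries were sought among 10246 other mRNAs with a symbol, as the smallest Euclidean distance between values of log2(CPM + 1) after each gene was centred on its own mean. The nearest was CCDC152, a coiled-coil protein gene, at a distance of 0.149, with 8.36 and 9.24 CPM in YL and 1.54 and 1.41 CPM in OL. FKBP3, a prolyl isomerase, followed at 0.307 with 20.3 and 25.9 CPM against 5.10 and 6.70, and DMRT1, a transcription factor of the gonads, at 0.307 with 26.3 and 37.7 CPM against 6.92 and 5.46. These 3 genes kept more reads in OL (95 and 101 for CCDC152), whereas LIPK kept 1 read in each. The scale of log2(CPM + 1) understates the fall of LIPK, so genes near it there fell by a smaller ratio than LIPK. Distances over 4 libraries describe these libraries and carry no test.

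The study pairs LIPK with the lncRNA MSTRG.205482, as a correlated target that was itself differentially expressed. Their shared direction is therefore a description and not independent evidence. The study also measured this lncRNA, but not LIPK, by q-PCR in the sows sequenced. It reports that fold changes of the RNAs chosen for q-PCR correlated between the methods. The lncRNA was at 62.5 and 93.9 CPM in YL and at 5.09 and 12 CPM in OL, where it still had 313 and 864 reads. Both were lower in both old livers, but the young mean of the lncRNA was 9.14 times its old mean, against 205 times for LIPK, which rests on 2 reads in OL and has the counting interval of 56.1 to 1686 given above for the summed reads.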

How the data were processed

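Liver RNA was sequenced from 2 young and 2 old sows, grouped by the age in the labels. The authors used TopHat2 2.0.14 to align the reads to Sscrofa10.2, assembled transcripts with StringTie 1.2.3 and deposited values they name TPM and credit to Salmon 0.6.0. The deposited values of each library were whole multiples of 1 step, the same for every gene, and are treated as CPM of an unstated library total. Dividing by the step gave whole reads, within 0.1 of a read, for 100% of the mRNA and lncRNA values above 0. The miRNA and circRNA tables were not used here.

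Symbols were joined for 11654 of 21607 identifiers. Old and young libraries were compared with limma 3.58.1 in R 4.3.3 on log2(CPM + 1), over all mRNAs above 0 in 2 or more libraries, and p-values were adjusted over all of them by Benjamini-Hochberg. A call needed an adjusted p-value under 0.05 and an absolute log2 difference above 1. The exact and quasi-likelihood tests of edgeR 4.0.16 and DESeq2 1.42.0 were run on the whole reads as alternatives. All tests were tested on simulated counts with known changes. Other alternatives were the pseudocount, the filter, the scaling, a mean-variance trend, a replicate block and leaving out each library. Partners were named when their mean was at least 1 CPM and the age groups did not overlap, up to 3 per direction in each list by the size of the difference. Likeness to a gene was taken for the lipase with the largest difference and a mean of at least 1 CPM. This was LIPK, which reached that mean through the young livers alone. From these lists, 1 gene is not reported here. The members and lists were chosen with earlier results of these data known. Reads are not independent molecules, so intervals cover counting error only. Python 3.11.15 was used for the rest. No protein, promoter or transcript sequence was used here.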

Additional observations from a re-analysis of the deposited data

How the results depend on the processing

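Of 327 alternative values for the 22 genes named by rule, 320 kept their direction and their side of the threshold. As 0 mRNAs were called in most of these settings, staying on the uncalled side was nearly fixed in advance. The count also does not measure size. ABHD2 counted as kept at -0.12 without old replicate 1, against -0.91 with all libraries. The difference of PNPLA3 ranged with 1 library left out from -0.0014, without old replicate 1, to 1.88, without old replicate 2. LIPK and ABHD5 passed the threshold in the exact test of edgeR and in DESeq2, and LMF1 and PON3 in DESeq2. The number of mRNAs called was 0 in limma, 2 with a mean of at least 1 CPM required, 399 in the exact test and 859 in DESeq2, and the number of lipases called was 1 in each of the last 2. The median difference of the lipases was 0.23, and 1.20 with a pseudocount of 0.1. It was 1.68 in the exact and quasi-likelihood tests of edgeR and 1.66 in DESeq2. Over the 4 genes left with a mean of at least 1 CPM it was -0.60, where the removal of LIPE, MGLL and PNPLA2 sets the sign. LIPK is among these 4 only through its young values. With 1 library left out, where the lone sample is assumed to vary like the other age group, the median lay between -0.0014 and 0.27. Replicate numbers shared by the ages name different animals, and deviations of same-numbered libraries had r = 0.09 across mRNAs. With the number as a replicate block, 0 mRNAs were called and the median difference of the lipases stayed at 0.23. Few reads limit LIPE, with 1 to 17 per library, and LIPK, with 1 in each old library.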
